A study of Mus musculus with 2 samples.

Results

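A promoter rich in CpG dinucleotides was called closed here when neither spleen library had a DNase I peak near it. The genes are protein-coding genes of GENCODE vM21, a mouse gene annotation, placed on mm10. A gene was CpG-rich when the window of 500 bp on each side of its most upstream start site had an observed over expected CpG ratio of 0.5 or more. It was closed when no peak of the longer peak list of either library lay within 1 kb of any of its start sites. By this rule 783 of 12028 CpG-rich genes were closed (6.51%), out of 21827 protein-coding genes in all. Another 457 CpG-rich genes had a peak in 1 library, 10788 had one in both and are called open, and 6857 CpG-poor genes had none. The members were chosen by the absence of peaks, so that absence is a description and was not tested. The libraries are biological replicates 1 and 2 of spleen from male B6CASTF1/J mice aged 4 days, first-generation hybrids of C57BL/6J and CAST/EiJ. The labels name no treatment or other group, so there was no contrast between conditions. DNase-seq maps open chromatin through the cuts that the nuclease DNase I makes in accessible DNA.

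In mammalian genomes CpG dinucleotides are depleted except in CpG islands, which cover the promoters of most housekeeping genes and of many developmental regulators. Most such islands are unmethylated and accessible in nearly every tissue, also where the gene is silent. Known exceptions include islands held by Polycomb group proteins at developmental regulators and islands methylated in the body, as at many germline genes. Neither Polycomb nor methylation was measured here.

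The 250 bases before the start site of 8 closed genes are shown to let the CpG density of promoters without a peak be seen. Each gene is among the closed members with the highest CpG ratio of 1 of 8 gene lists, with few repeated words and no annotated exon in the bases shown. Capitals mark every CpG dinucleotide, and each sequence is given 5′ to 3′ on the strand of the gene, from mm10.
Barhl2 (chr5:106458167-106458416, minus strand): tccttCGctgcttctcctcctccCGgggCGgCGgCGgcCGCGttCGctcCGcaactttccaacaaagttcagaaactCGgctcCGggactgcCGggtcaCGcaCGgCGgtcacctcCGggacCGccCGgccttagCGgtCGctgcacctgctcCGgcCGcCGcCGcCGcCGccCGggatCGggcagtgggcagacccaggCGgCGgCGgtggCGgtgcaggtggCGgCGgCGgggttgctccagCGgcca
Bhlhe23 (chr2:180776901-180777150, minus strand): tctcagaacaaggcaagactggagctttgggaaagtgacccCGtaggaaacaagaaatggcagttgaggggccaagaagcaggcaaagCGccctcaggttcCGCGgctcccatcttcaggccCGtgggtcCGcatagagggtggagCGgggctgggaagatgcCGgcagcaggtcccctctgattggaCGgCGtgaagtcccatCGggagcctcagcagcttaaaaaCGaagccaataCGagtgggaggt
Fkbp6 (chr5:135350045-135350294, minus strand): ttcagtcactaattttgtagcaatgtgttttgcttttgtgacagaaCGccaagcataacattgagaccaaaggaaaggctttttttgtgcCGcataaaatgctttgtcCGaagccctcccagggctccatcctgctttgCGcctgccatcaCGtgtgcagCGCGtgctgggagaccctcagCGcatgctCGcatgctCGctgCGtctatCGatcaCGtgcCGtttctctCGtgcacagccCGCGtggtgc
Gabbr2 (chr4:46991874-46992123, minus strand): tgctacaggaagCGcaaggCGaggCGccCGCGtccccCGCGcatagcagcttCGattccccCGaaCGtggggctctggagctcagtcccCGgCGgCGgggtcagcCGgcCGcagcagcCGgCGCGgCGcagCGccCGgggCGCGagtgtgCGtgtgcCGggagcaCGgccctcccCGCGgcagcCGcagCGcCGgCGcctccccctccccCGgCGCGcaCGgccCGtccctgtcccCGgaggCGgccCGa
Cacna1i (chr15:80286988-80287237, plus strand): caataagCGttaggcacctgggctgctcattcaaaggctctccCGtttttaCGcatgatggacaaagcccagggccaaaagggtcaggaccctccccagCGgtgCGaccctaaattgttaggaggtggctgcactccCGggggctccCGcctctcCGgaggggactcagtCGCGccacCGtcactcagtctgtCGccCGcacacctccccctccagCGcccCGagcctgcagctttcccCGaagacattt
Camk2b (chr11:6065749-6065998, minus strand): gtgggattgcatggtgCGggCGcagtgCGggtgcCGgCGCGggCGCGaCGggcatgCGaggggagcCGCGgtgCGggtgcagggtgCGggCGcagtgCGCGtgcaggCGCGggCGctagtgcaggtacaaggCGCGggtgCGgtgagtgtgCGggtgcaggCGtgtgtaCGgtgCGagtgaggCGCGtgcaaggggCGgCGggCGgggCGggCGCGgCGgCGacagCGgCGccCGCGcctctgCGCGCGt
Bmp8b (chr4:123104915-123105164, plus strand): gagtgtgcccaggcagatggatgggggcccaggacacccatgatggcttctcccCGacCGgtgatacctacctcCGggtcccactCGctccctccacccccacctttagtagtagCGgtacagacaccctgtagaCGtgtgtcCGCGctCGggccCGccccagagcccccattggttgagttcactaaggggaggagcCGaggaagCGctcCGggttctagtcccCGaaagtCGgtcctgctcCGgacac
Cobl (chr11:12464961-12465210, minus strand): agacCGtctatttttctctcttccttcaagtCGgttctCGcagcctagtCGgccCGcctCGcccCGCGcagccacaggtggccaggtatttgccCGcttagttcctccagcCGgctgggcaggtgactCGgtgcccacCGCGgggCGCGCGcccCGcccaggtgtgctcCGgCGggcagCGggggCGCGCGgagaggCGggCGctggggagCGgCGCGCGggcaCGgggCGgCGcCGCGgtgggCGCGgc

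The 250 bases before Camk2b, a subunit of a calcium-dependent kinase of synapses, held 44 CpG dinucleotides. Those before Gabbr2, a subunit of the metabotropic GABA receptor, held 40. The bases before Barhl2, a homeodomain factor of the developing nervous system, and before Cobl, an actin nucleator, held 36 each. Fkbp6, a gene needed for meiosis in males, had 17, Cacna1i, a T-type calcium channel, and Bmp8b, a bone morphogenetic protein, had 16 each, and Bhlhe23, a basic helix-loop-helix factor, had 13. Of the 15 motifs searched, the sequence before Gabbr2 held none. Nearest peaks of these 8 genes ranged from 1138 and 1114 bp away (replicates 1 and 2) at Gabbr2 to 40727 and 104326 bp at Barhl2.

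By the rule, every peak near a closed gene stands over 1 kb from its start sites. The strongest such peaks found in both libraries near closed genes with few repeated words are shown for comparison. They lie over 1 kb from every protein-coding start site and outside annotated exons, and span at most 300 bp. Capitals again mark CpG, and the strand is the plus strand of mm10.
Trpv4, 9180 bp upstream (chr5:114667601-114667780): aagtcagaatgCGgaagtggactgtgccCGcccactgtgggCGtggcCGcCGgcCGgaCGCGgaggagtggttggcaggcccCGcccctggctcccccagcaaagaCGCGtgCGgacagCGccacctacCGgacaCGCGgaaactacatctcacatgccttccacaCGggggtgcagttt
Efna2, 14202 bp upstream (chr10:80165101-80165280): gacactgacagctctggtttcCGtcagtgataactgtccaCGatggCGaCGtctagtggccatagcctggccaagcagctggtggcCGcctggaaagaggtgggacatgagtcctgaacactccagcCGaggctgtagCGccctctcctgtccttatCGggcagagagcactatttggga
Efna2, 19342 bp upstream (chr10:80159841-80160140): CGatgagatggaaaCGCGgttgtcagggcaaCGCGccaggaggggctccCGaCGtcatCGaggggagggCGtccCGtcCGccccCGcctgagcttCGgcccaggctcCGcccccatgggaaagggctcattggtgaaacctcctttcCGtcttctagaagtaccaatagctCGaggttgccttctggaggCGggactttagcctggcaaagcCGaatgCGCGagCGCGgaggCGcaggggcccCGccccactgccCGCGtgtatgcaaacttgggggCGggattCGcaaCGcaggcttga

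The first of these peaks lay upstream of Trpv4, an ion channel opened by heat and cell swelling, and had a signal of 19.3 in replicate 1 and 19 in replicate 2. The other 2 lay upstream of Efna2, an ephrin ligand of axon guidance, with signals of 15.2 and 15.8 for the nearer and 16.4 and 15 for the farther. Signal is the authors' deposited value per peak, with no stated scale. For comparison, the strongest promoter peak of the 10788 open genes had a median signal of 7.74 in replicate 1 and 6.31 in replicate 2.

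The longer lists held 80323 and 88723 peaks, called on each library alone, and the read depth behind them is unknown. Promoter peaks stood at Gata1, Klf1 and Tal1 (red cell precursors), at Spi1 (leukocytes), at Cd79a and Pax5 (B cells) and at Tlx1 (spleen stroma) in both libraries, and none stood at Alb of liver or Ins2 of pancreas. The endothelial Pecam1 had a peak in both libraries and the endothelial Cdh5 in neither. The leukocyte gene Ptprc had one in replicate 2 only, and Nkx2-5, a homeobox gene of spleen stroma and heart, was itself one of the closed CpG-rich genes. In a whole tissue, a closed promoter and a promoter open in few cells cannot be told apart.

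Closed promoters became rarer as the CpG ratio rose. Between ratios of 0.5 and 0.6, 259 of 1665 genes were closed (15.6%). The share was 9.07% from 0.6 to 0.7, 4.8% from 0.7 to 0.8, 3.47% from 0.8 to 0.9 and 2.8% from 0.9 to 1. At a ratio of 1 or more, 4 of 434 genes were closed (0.922%). Each library alone gave the same order, from 18.9% to 1.61% in replicate 1 and from 18.5% to 2.53% in replicate 2. Over the 783 closed genes the ratio had a median of 0.649, against 0.767 over the open genes and 0.695 over those with a peak in 1 library.

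**Figure D1:**
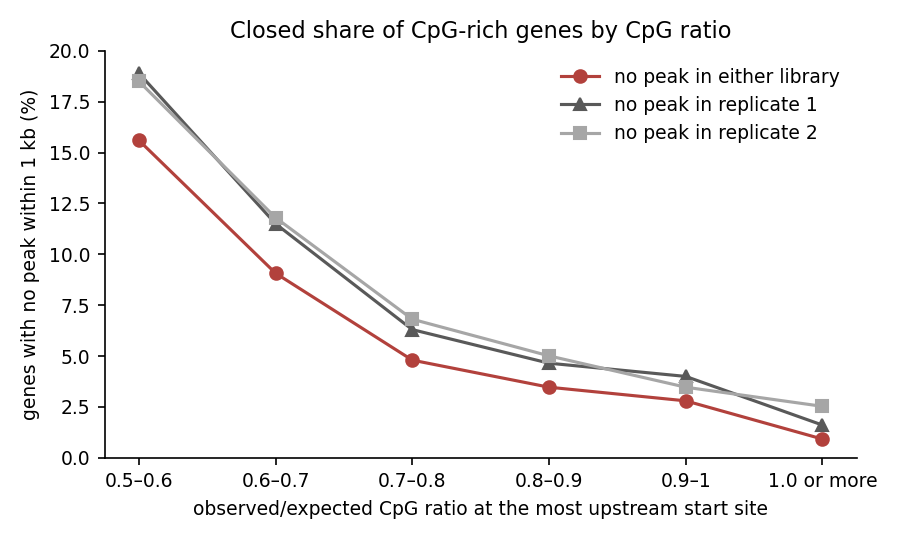
Share of CpG-rich genes with no peak within 1 kb (y axis, percent) by observed over expected CpG ratio (x axis). Circles stand for genes without a peak in either library, triangles and squares for genes without a peak in replicate 1 or replicate 2. All 3 lines fall from the lowest ratio to the highest, from 15.6% to 0.922% for both libraries together.

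The closed genes with the highest ratios, leaving out repeated promoters, were few and of varied function. Barhl2 (1.07) and Sall3 (1.01), a zinc finger factor of limb and nerve development, exceeded 1. They were followed by Dchs1 (0.989), a large cadherin, Ovol1 (0.986), a zinc finger factor of epithelia, and Camk2b (0.985). Cabp7, a calcium-binding protein, and Ajap1, a junction protein, both had 0.982, Zdbf2, an imprinted gene, 0.981, Myo5b, a motor of vesicle traffic, 0.976, and Zfp618, a zinc finger gene, 0.97. Their surroundings differed widely. Ajap1 had a peak 1730 and 1710 bp away in replicates 1 and 2, and Ovol1 had 16 distal peaks within 50 kb in each library. Sall3 had 1 and 0 distal peaks.

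Of 20 gene lists drawn up by symbol, 17 had a closed share above the 6.51% of all CpG-rich genes. Some of the 17 were too small to read: chemosensory receptors had 1 of 2 closed, Olfr212, with 56.3% repeated words in its window. In total 401 of the 783 closed genes were in at least 1 list and 382 in none. The lists were not tested, and the counts below are read against 6.51% only. Since the closed share depends on the CpG ratio, the lists were also split at a ratio of 0.7. At 0.7 or more, where 291 of 7795 CpG-rich genes were closed (3.73%), 14 lists lay above that share. Between 0.5 and 0.7, where 492 of 4233 were closed (11.6%), 17 lists did. The counts depend on the peak list. With the shorter, stricter lists, where 12.7% of all CpG-rich genes had no peak, 13 of the 20 counts moved by over 1.5 times. Homeobox genes then had 106 of 153 without a peak (69.3%), ion channels 52 of 105 (49.5%), germline genes 41 of 85 (48.2%) and clustered protocadherins 27 of 31 (87.1%).

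**Figure D2:**
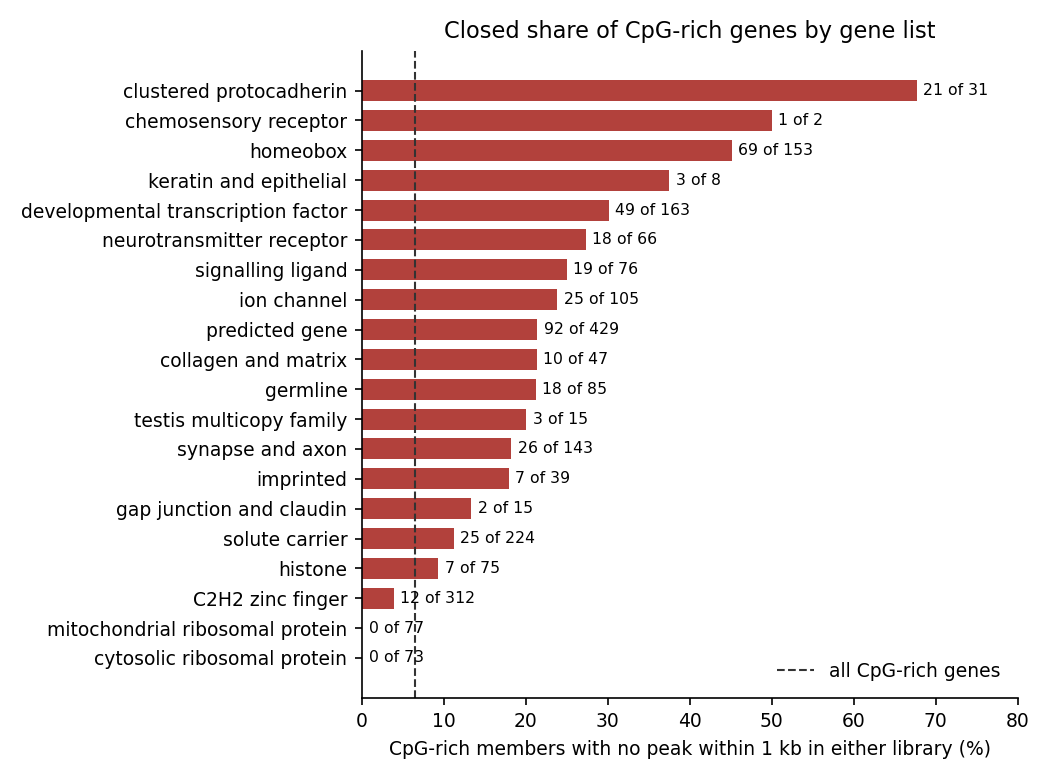
Percent of the CpG-rich members of each gene list without a peak within 1 kb in either library (bars), with the number closed of the CpG-rich members beside each bar. The dashed line is the 6.51% of all CpG-rich genes: ribosomal protein lists had 0 closed genes, and clustered protocadherins had 21 of 31.

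Transcription factors of development were the largest group of known function. Of 153 CpG-rich homeobox genes, 69 were closed (45.1%), with 82 closed in replicate 1 alone and 83 in replicate 2 alone. Homeobox genes encode factors that set position and cell identity in the embryo. At a CpG ratio of 0.7 or more, 39 of 81 homeobox genes were closed (48.1%), so the share was not lower among the more CpG-rich ones. The highest ratios were those of Barhl2, Vax1 (0.948), which patterns the optic stalk, and Irx2 and Nkx1-1 (0.917 each). Irx2, an Iroquois factor, had its nearest peak 270728 bp away in replicate 1 and 267399 bp away in replicate 2. Nkx1-1 had one at 4325 bp in both libraries. Of 163 other CpG-rich developmental factors, 49 were closed (30.1%). Unlike that of homeobox genes, their share was lower at higher ratios. It was 28 of 63 (44.4%) between 0.5 and 0.7 and 21 of 100 (21%) at 0.7 or more. The closed ones included Sall3, Bhlhe23, Zic2, a zinc finger factor of forebrain development (ratio 0.918), and Sim2, a factor of midline development (0.915). In all, 118 of 316 CpG-rich genes of the 2 lists were closed (37.3%). C2H2 zinc finger genes other than those factors gave the opposite picture, with 12 of 312 closed (3.85%). The closed ones with the highest ratios were Zfp618, Zfp804a (0.825), Zfp641 (0.701) and Zfp503 (0.684).

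The 4 Hox clusters, which hold genes in the order of their use along the body axis, differed among themselves. In HoxD all 8 CpG-rich genes were closed, in HoxC 5 of 7, in HoxB 3 of 4 and in HoxA 3 of 9. HoxD held 3 peaks in each library over 94671 bp, and HoxC 3 in each over 92713 bp. Open Hox promoters carried lower signals than the median open promoter at the 5 genes given here: Hoxa4 had 2.83 and 2.46, Hoxa10 2.15 and 2.14, and Hoxc10 1.13 and 1.16. Hoxa5 had 0.823 and 0.666, and Hoxb5 0.683 and 1.08.

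From Evx2, a homeobox gene beside HoxD, to Hoxd1, 9 neighbouring CpG-rich genes were closed (chr2:74659557-74762980, a span of 103424 bp). Hoxd4, the CpG-poor gene among them (ratio 0.256), had no peak either. Within the span 3 peaks lay between start sites, at the same places in both libraries. The strongest, with signals of 2.04 and 1.88, was 3954 and 3934 bp from the start site of Hoxd3. A peak with signals of 0.785 and 0.956 was 2140 and 2128 bp from Hoxd8, and one with 0.78 and 0.621 was 1786 and 1843 bp from Hoxd12. Another, with 0.935 and 0.74, lay on the other side of Evx2. No CpG-rich start site of the cluster was itself covered.

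**Figure D3:**
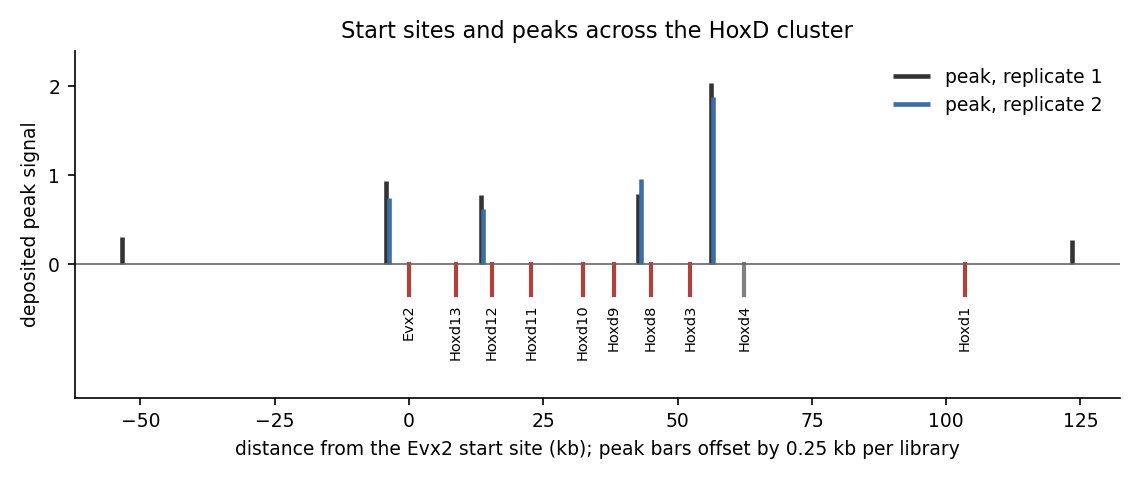
Deposited peak signal (y axis) by distance from the Evx2 start site in kb (x axis), with replicate 1 in black and replicate 2 in blue. Red ticks below the line mark CpG-rich start sites and the grey tick marks Hoxd4. The peaks found in both libraries, up to 2.04 and 1.88, fall between the ticks, except for the peak to the left of Evx2.

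Clustered protocadherins, cell surface proteins that give neurons individual identities through the choice of 1 promoter among many, had the highest closed share of the 20 lists with the longer peak lists. With the stricter ones, the list of keratin and epithelial genes exceeded them with 8 of 8. Of the 31 CpG-rich protocadherin genes 21 were closed (67.7%), and at a ratio of 0.7 or more 6 of 8 were. The longest run of neighbouring closed CpG-rich genes was the alpha cluster from Pcdha1 to Pcdha12 (chr18:36930184-37020149, 14 genes in 89966 bp), in which neither library had a peak. Of these 14, Gm42416, Gm37013 and Gm37388 are predicted genes annotated within the cluster. A second run of 5 genes, from Pcdhgb1 to Pcdhga7 (34532 bp), had no peak either. Pcdha6 (ratio 0.749) had its nearest peak 122280 and 54707 bp away, whereas Pcdhga10 (0.74) had one at 4488 bp in both libraries. Of the 31-base words around the closed alpha genes from Pcdha1 to Pcdha12, 9.89% (Pcdha8) to 29% (Pcdha6) occur elsewhere in the genome, and the part of this in the closed calls was not tested. Among protocadherins with under 10% of such words, 11 of 17 were closed.

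Neuronal genes formed the next group, with 69 of 314 CpG-rich genes of 3 lists closed (22%). For neurotransmitter receptors it was 18 of 66 (27.3%). Besides Gabbr2 they included Oprd1, the delta opioid receptor (ratio 0.855), Adra1d, an adrenergic receptor (0.816), and Drd2, a dopamine receptor (0.774). Drd2 had no peak within 50 kb, and its nearest lay 93523 and 93516 bp away. Of 105 ion channel genes 25 were closed (23.8%), among them Cacna1i, Cacng4, a regulatory subunit of calcium and glutamate channels (0.93), Kcnd3, a potassium channel (0.874), and Hcn2, a pacemaker channel (0.869). Hcn2 had 19 and 27 distal peaks, and Kcnd3 had none. Ion channel genes were closed in 31% of cases between ratios of 0.5 and 0.7 and in 19% at 0.7 or more. For neurotransmitter receptors these shares were 28.2% and 25.9%, and for genes of synapse and axon 17.5% and 18.8%. Of 143 genes of synapse and axon 26 were closed (18.2%), with Camk2b, Nptx1, a pentraxin of synapses (0.907), Shisa9, a glutamate receptor partner (0.899), and Rims4, a presynaptic protein (0.894), at the top.

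Of 76 genes of secreted signals 19 were closed (25%), and at a ratio of 0.7 or more it was 12 of 41 (29.3%). Bmp8b was followed by Gdnf, a neurotrophic factor (0.824), Wnt2b (0.802) and Fgf3 (0.793), members of the Wnt and fibroblast growth factor families. Matrix genes were closed in 10 of 47 cases (21.3%), including the protease genes Adamts8 (0.834) and Adamts18 (0.732) and the collagen genes Col12a1 (0.751) and Col13a1 (0.747). Col12a1 had a peak 1358 bp and Col13a1 one 1433 bp from the start site in both libraries. Adamts18 had none within 136331 and 136346 bp. Solute carriers were closed in 25 of 224 cases (11.2%) and in 6 of 124 at a ratio of 0.7 or more (4.84%), which is near the share of all genes. The highest ratios were those of Slc47a2, an exporter of organic cations (0.81), Slc6a11, a GABA transporter (0.759), Slc6a4, the serotonin transporter (0.758), and Slc25a31, a mitochondrial carrier of testis (0.753).

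Of 85 CpG-rich germline genes 18 were closed (21.2%), 14 of them among the 49 with a ratio under 0.7 (28.6%). At 0.7 or more it was 4 of 36 (11.1%). Fkbp6, Slc25a31, Tex11, a meiotic gene (0.751), and Ddx4, the germ cell RNA helicase Vasa (0.742), had the highest ratios. Ddx4 had 6 distal peaks within 50 kb in each library. A list of testis-specific multicopy families had 3 of 15 closed (20%): Pramel1, Pramel3 and Cypt4. Pramel3 had 82.6% and Cypt4 21.4% repeated words. Among genes with under 10% repeated words, 1 of 11 of this list was closed (9.09%), against 5.67% of all CpG-rich genes. Of 39 imprinted genes 7 were closed (17.9%). These were Zdbf2, Nnat (0.866), Phlda2 (0.824), Cobl, Dlk1, Dlx5 and Slc22a3. Imprinted genes are expressed from 1 parental allele, and the peaks used here do not separate the alleles. Nnat had a peak 1152 and 1187 bp from its start site, and Phlda2, a placental growth regulator, had 13 and 18 distal peaks.

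The remaining lists were short, near the background or without any closed gene. Keratin and epithelial genes had 3 of 8 closed, Krt87, Krt7 and Krt27, and claudins and gap junction genes had 2 of 15, Cldn3 and Cldn6. With either library alone it was 4 of 15 (26.7%). Histone genes were closed in 7 of 75 cases (9.33%). Hist1h2ap, Hist1h2br, Hist1h2ao and Hist1h2bq, which had between 16 and 31 distal peaks in each library, had windows made wholly of repeated words (100%). No gene of 73 for cytosolic and none of 77 for mitochondrial ribosomal proteins was closed in either library.

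Sequence that occurs more than once in the genome was more common at closed CpG-rich promoters than at open ones, and more common still at closed CpG-poor ones. Of the 783 closed genes 149 (19%) had 10% or more repeated 31-base words in the window of 500 bp on each side, against 6.27% of the open genes. Over 50% was found at 85 closed genes (10.9%) against 0.76% of the open ones, and 48 of these 85 were predicted genes. At closed CpG-poor genes the shares were 37.1% with 10% or more and 18.7% with over 50%. Of all 179 CpG-rich genes over 50%, 85 were closed (47.5%). How reads that match several places were treated is not given in the sources used here, and the part of repeats in the closed calls was not tested. Among genes with under 10% repeated words, 634 of 11176 were closed (5.67%). There the share was 44.3% for homeobox genes, 29.8% for other developmental factors, 23.3% for ion channels and 19.2% for germline genes. For predicted genes it was 10%, against 92 of 429 (21.4%) with repeats included.

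Several runs of closed neighbours had windows made mostly of repeated words. On chromosome 14 a run of 5 genes from Slc25a37 to Loxl2 (chr14:69285112-69609068) and one of 6 from Plac9a to Tmem254b (chr14:25903100-26207041) held no peak, and all 11 windows had over 50% repeated words. Slc25a37, which encodes mitoferrin, the mitochondrial iron importer of developing red cells, had a window of 100% repeated words. Its nearest peaks were 43292 and 36232 bp away. On the X chromosome 5 of the 7 genes from Gm15023 to Tmsb15a, which include Prame and Pramel3, were repeated in this way. In contrast, the run of Gm5089, Zic5, Zic2 and Gm10837 (39472 bp, no peak in either library) and that of Fev, Cryba2, Cfap65 and Ihh (66254 bp, 5 and 4 peaks) had none over 50%. Fev is a factor of serotonin neurons and Ihh, Indian hedgehog, a signal of growing cartilage.

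In exon number and neighbours, closed CpG-rich genes also differed from open ones, in the same direction as closed CpG-poor genes. Of the 783, 74 had 1 exon (9.45%), against 3.18% of the open genes and 11.9% of the closed CpG-poor ones. Genes with a peak in 1 library had 6.35%. Among CpG-rich genes with under 10% repeated words, it was 33 of 634 closed genes (5.21%) against 2.64% of open ones. Over all members the median number of exons was 5, against 9 at open and 4 at closed CpG-poor genes. The nearest other protein-coding gene was closed at 335 members (42.8%), at 17% of the open genes and at 64.6% of the closed CpG-poor ones. Among CpG-rich genes with under 10% repeated words, that share was 36.6% at closed against 17% at open genes. Another gene's start site within 1 kb was found at 31 closed genes (3.96%), at 19.6% of the open ones and at 2.45% of the closed CpG-poor ones. Such a neighbour shares the window, so the rule itself keeps this share low at closed genes. At genes with a peak in 1 library it was 3.72%. By chromosome the closed share ran from 3.98% on chromosome 8 to 12.7% on the X, leaving out the Y, which had 7 CpG-rich genes of which 3 were closed. With repeats left out, the X chromosome had 9.81%.

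Distal peaks lie more than 1 kb from every start site of a gene and at most 50 kb from its most upstream one. They were fewer around closed genes than around open ones. The median was 3 in each library, against 6 in each around open genes, 2 in each around genes with a peak in 1 library, and 1 and 2 around closed CpG-poor genes. Neither library had a distal peak at 128 closed genes (16.3%) and at 3.83% of open genes. At the other end, 116 closed genes (14.8%) and 25.5% of open genes had 10 or more in both. Genes share distal peaks with their neighbours and are not replicates, so no test was made.

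**Figure D4:**
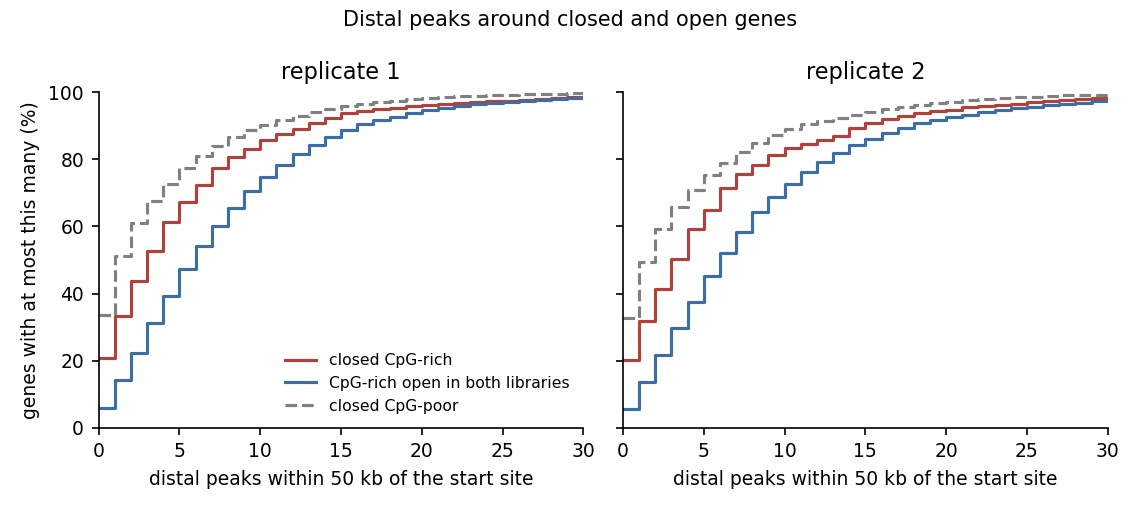
Cumulative percent of genes (y axis) with at most a given number of distal peaks within 50 kb (x axis), for replicate 1 and replicate 2. The red line for closed CpG-rich genes lies between that for open CpG-rich genes (blue) and that for closed CpG-poor genes (grey dashes), with medians of 3, 6 and 1 in replicate 1 and 3, 6 and 2 in replicate 2.

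Many distal peaks are promoters of other genes. Without them the medians were 2 and 3 around closed genes and 4 in each library around open genes. The difference was also there at equal numbers of protein-coding start sites within 50 kb. That count includes a gene's own start sites, so the number of neighbouring genes was not matched. With no other start site within 50 kb, 166 closed genes had a mean of 2.1 and 2.36 such peaks and 1333 open genes 3.81 and 4.13. With 5 start sites in that range, counting their own, 59 closed genes had 3.83 and 4.32 and 941 open genes 4.8 and 5.53. It was there at equal CpG ratio as well. Between 0.5 and 0.6 the means were 3.13 and 3.78 against 5.24 and 6.06, and from 0.8 to 0.9 they were 3.91 and 4.72 against 4.92 and 5.4. At 0.9 and above, the mean of replicate 1 was 5.3 around 46 closed genes against 5.06, while replicate 2 had 4.7 against 5.67.

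The median signal of distal peaks differed between sets of peaks that overlap each other, and the differences were not tested. The 2433 peaks of replicate 1 that lay within 50 kb of a closed start site and over 1 kb from every start site had a median signal of 0.887, and the 2769 of replicate 2 had 0.703. For peaks near open genes the medians were 0.801 and 0.658, and for all peaks away from start sites 0.656 and 0.54. The first set includes peaks that are also near open genes. Peaks near a closed and no open gene had medians of 0.737 and 0.58, below those near open genes and above those of all. The GATA motif AGATAA, bound by factors of red cell precursors, occurred in 9% and 8.41% of the 200 bp windows on peaks near closed genes, searched on both strands. Near open genes it occurred in 11.6% and 10.5%, and at all peaks away from start sites in 11.1% and 10%. At peaks near a closed and no open gene it occurred in 9.15% and 9.36%.

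Genes were ranked by their distal peaks in the library with fewer. Efna2 had 35 in each library, Gm12184 had 34 and 38, Plk5, a kinase-family gene, 34 and 45, and Grin3b, a glutamate receptor subunit, 36 and 33. Tmem145 had 30 and 53, Sfi1, a centrosome gene, 29 and 31, and Tmem121 28 and 30. The predicted genes Gm10715, Gm10721 and Gm17535 on chromosome 9 had 32 or 33, in windows with 93.4% to 100% repeated words. Farthest from any peak were Gm21953, Gm21586, Gm13306 and Gm3020, all at 98.8% or 100% repeated words. Without those, the farthest was Cadps, a gene of vesicle release in neurons, at 288550 and 461402 bp. Csmd2, a large membrane protein gene, followed at 276535 and 283054 bp, then Irx2, and Kcnd2, a potassium channel gene, at 265020 and 324308 bp. Irs4, an insulin receptor substrate, had its nearest peak at 249823 bp in both libraries, and Chrm2, a muscarinic receptor, at 303523 and 249441 bp.

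The nearest peak of a closed gene was a median of 12400 bp away in replicate 1 and 11801 bp in replicate 2. For 116 genes it lay within 2500 bp in at least 1 library, and for 52 genes (6.64%) over 100 kb away in both. By group the nearest peak was a median of 7874 and 9153 bp away for homeobox genes and 8355 bp in each library for signalling genes. For ion channels it was 28416 and 18676 bp, and for clustered protocadherins 69779 and 27143 bp.

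The libraries gave the same number of distal peaks at 314 closed genes (40.1%) and numbers within 2 of each other at 667 (85.2%). At 19 genes they differed by 10 or more, 16 of them with more in replicate 2. Adam33, a metalloprotease gene, had 44 in replicate 1 and 6 in replicate 2. Adra1d had 5 and 27, and Itgad, an integrin gene, 4 and 21; Adam33 and Itgad were chosen after their values were seen. Peaks of the library with more that had no overlap in the other had median signals from 0.0777 to 0.462 across the 19 genes. Of the 44 peaks around Adam33 in replicate 1, 40 overlapped none of replicate 2 and had a median signal of 0.0968, while the shared ones had 1.77. The 23 unshared peaks around Adra1d in replicate 2 had a median of 0.094, against 1.33 for the shared ones. At all 18 of these genes with a shared peak, the unshared peaks had the lower median. The same comparison over all distal peaks is not given here, so this does not set these genes apart.

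Other deposited readouts come from the same cuts as the peaks, so their low level at closed promoters largely restates the rule and supports nothing further. The authors list stretches of bases with a false discovery rate (FDR) under 0.05 for the rate of cuts. Such a stretch within 1 kb of a start site was found at 56 closed genes (7.15%) in replicate 1 and at 59 (7.54%) in replicate 2. Both libraries had one at 10 genes (1.28%). At closed CpG-poor genes the shares were 1.28% and 1.6%, and at open genes 100% in each. An FDR of at most 0.01 in both libraries was found at 5 closed genes. These were Vstm2l (1.31e-06 and 2.14e-08), Slc6a4, Fam178b, Comp, a cartilage matrix gene, and Ap1m2, an adaptor gene of epithelia. Each had a peak between 1018 and 1084 bp from its start site, just outside the limit. Itgad had an FDR of 2.31e-13 in replicate 2 and no listed stretch in replicate 1, with no peak within 6226 bp. No footprint, a short protected stretch inside open chromatin, lay within 1 kb of any of the 783 genes in either library, against 99.2% and 99.5% of open genes.

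Closed and open CpG-rich promoters also differed in short sequence motifs that factors of ubiquitously active promoters are known to bind. In all 15 motifs were searched on both strands in the 1001 bp windows. The ETS motif CCGGAAGT was present at 27 closed genes (3.45%) and 12.7% of open genes, and at 11.7% of all CpG-rich genes. The YY1 motif AAGATGGC was present at 3.32%, 10.6% and 9.87%, in the same order. For the NRF1 motif GCGCATGCG the shares were 1.79%, 5.56% and 5.19%, and for the cyclic AMP response element TGACGTCA 1.92%, 5.25% and 4.96%. The ZBTB33 motif CTCGCGAGA was found at 0.639%, 2.39% and 2.22%. The ZNF143 box CTACAATTC was found at 0 closed genes and 119 open ones (1.1%), and at 0.998% of all. At least 1 of these 6 was present at 80 closed genes (10.2%), at 12.5% of genes with a peak in 1 library and at 31.9% of open genes.

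CpG content differs between the classes, so the shares were also compared in 5 intervals of the CpG ratio. Those of ETS, YY1, NRF1, the cyclic AMP response element and ZNF143 were lower at closed genes in all 5, while ZBTB33 was lower in 4. ZNF143 had 0 matches at closed genes, so it was lower wherever open genes had any. From 0.9 upward, ETS was at 4.35% of closed and 11.2% of open windows, and YY1 at 2.17% and 12.5%. That interval held 46 closed and 1850 open genes, so its shares at closed genes rest on very few matches. The other motifs that were less frequent at closed genes had shares closer to those at open genes, relative to their size. The SP/KLF box GGGCGG was at 81.1% of closed and 91.5% of open windows, and at 90.7% of all. The E2F motif TTCCCGC was at 18%, 25.3% and 24.8%, and the short E2F6 motif GCGGGA, which is contained in the E2F motif on the other strand, at 66.8%, 75.3% and 74.8%. The E-box CACGTG was at 19.7%, 22.3% and 21.9%, and the RFX motif GTTGCCATG at 1.02%, 1.39% and 1.33%.

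A few motifs were more frequent at closed than at open genes. The TATA box TATAAA was at 22.2% of closed, 18.8% of open and 19.1% of all windows, and the GATA motif at 22.2%, 19% and 19.1%. The CCAAT box of NFY was at 66.2%, 64.9% and 64.8%, but in the 250 bp before the start site it was lower at closed than at open genes (31.8% and 35.9%). The RFX motif turned the other way there, with 0.639% and 0.519%. The REST core TTCAGCACC was at 2.43%, 1.66% and 1.71%. GATA was lower at closed genes in 3 of the 5 intervals and CCAAT in 2. Without repeated promoters, GATA was at 19.4% of closed and 19% of open windows, so these shares nearly coincided. The REST core was then at 1.74% and 1.52%, the TATA box at 21% and 18.4%, and CCAAT at 66.6% and 65%. A match is a string of letters in the reference, and binding was not measured.

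**Figure D5:**
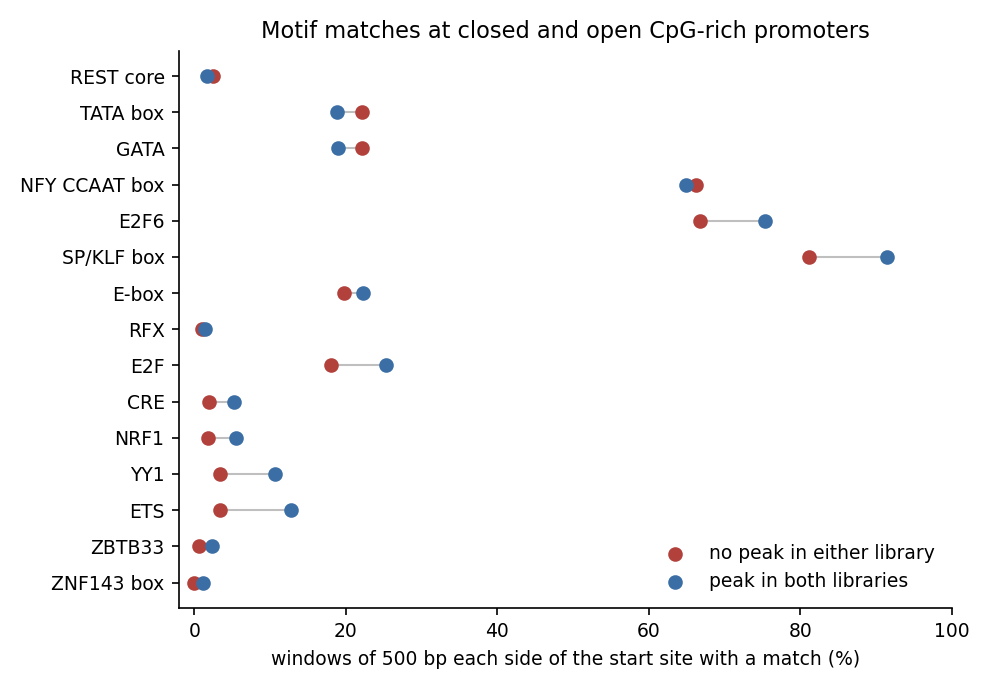
Percent of promoter windows with a match (x axis) for each of 15 motifs, at CpG-rich genes with no peak in either library (red) and with a peak in both (blue). ETS and YY1 have the red point far left of the blue one, at 3.45% against 12.7% and 3.32% against 10.6%, while the points of CCAAT nearly coincide.

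At the limits of the rule, the members graded into genes outside it. Just inside the CpG limit were Pgm5 (0.5011) and Ngb (0.5016), and just outside it Zmat4 and Nlrp4c (0.4999 each), also without a peak. On distance, Asic2, an acid-sensing channel gene, had its nearest peaks at 1001 and 1463 bp, and Vstm2l at 1033 bp in both libraries. Just outside, Cntnap1 had a peak at 1000 bp in both, with signals of 1.72 and 1.44. Efcab9 had peaks at 1000 and 980 bp with signals of 7.73 and 5.22, while Tfap2a, a factor of neural crest and skin, had one at 992 bp in replicate 2 only (0.372). Promoter peaks present in 1 library were weak in general, with a median signal of 0.403 where replicate 1 held them (240 genes) and 0.339 where replicate 2 did (217 genes).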

How the data were processed

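Accessibility was measured by DNase-seq in 2 libraries of spleen tissue, 1 for each biological replicate. Per the labels the files are on mm10. The authors deposited, for each library alone, 2 peak lists with a signal per peak, footprints with a q-value (FDR) that is the same in every line, and stretches of bases with an FDR (q-value) under 0.05. The scale of the signal is not stated, and the aligner and callers were not given in the sources used here. Depth is unknown, so no counting interval is given, and 2 libraries limit the precision.

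Start sites were those of protein-coding transcripts of the basic set of GENCODE vM21, 41433 in all, for 21827 genes by symbol. The CpG ratio is the number of CpG times the window length over the product of the C and G counts, in 1001 bp of GRCm38. Distances run to the nearest edge of a peak, and 1 bp of overlap counted as shared. Repeated words are 31-base words found more than once in the reference on either strand. Promoter sequences were read from the reference genome.

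The members and lists, with the motifs, were chosen with earlier results of these data known. No test was made, since there is 1 group and the rule uses the peaks. Named are, for each list, up to 4 closed genes with the highest CpG ratio (all where 10 or fewer are closed), and over all members those with the highest ratio, most distal peaks, greatest distance to a peak, lowest FDR, or a place at a limit or in a run of 4 or more. Cfap65, Cryba2, Fev and Ihh, for example, come from a run. Other genes named, such as Trpv4 with its strong distal peak, and the Hox genes of the other clusters, were chosen after their values were seen. Alternatives were each library alone, the shorter peak list, other windows, all transcripts, a higher CpG limit, an FDR limit, non-promoter peaks and low repeat content. Scripts were tested on simulated data, with Python 3.11.15, numpy 2.4.6, pandas 2.3.3 and numba 0.67.0.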

Additional observations from a re-analysis of the deposited data

How the results depend on the processing

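With the shorter, stricter lists 1526 CpG-rich genes (12.7%) had no promoter peak, against 783 (6.51%), the median of distal peaks was 2 in place of 3, and 30.1% of closed genes had no distal peak in place of 20.4% (mean of the libraries). With 1 library left out, the closed share was 8.31% to 8.51% and the count 1000 to 1023. The share was 5.06% at a CpG ratio of 0.6 or more, 5.9% with all transcripts, 5.64% where FDR stretches counted as open, 5.67% without repeated promoters, 5.55% for windows of 2500 bp and 7.35% for windows of 500 bp. The median of distal peaks was 2.5 for non-promoter peaks (mean of the libraries' medians), 4 without repeated promoters and 8 within 100 kb. The share with no distal peak was 23.4%, 16.5% and 9.96% in the same order. An FDR stretch within 1 kb was found at 7.34% of closed genes (mean of the libraries) and at 0.702% with an FDR of at most 0.01. The number of lists above the share of all CpG-rich genes was 17, and 16 with the stricter lists or without repeated promoters. The number of motifs less frequent at closed genes was 11 in each of the settings tried, but not of the same motifs: in the 250 bp before the start site CCAAT joined them (31.8% against 35.9%) and RFX left (0.639% against 0.519%). The cause of these shifts was not tested beyond the change of setting itself. No paired analysis was possible because the labels give 1 group only.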

Other observations

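A few closed genes are known from lymphoid or stromal cells of the spleen. They were picked after their values were seen, so they say nothing of such genes as a group. Tbx21, the T-bet factor of type 1 T cells and natural killer cells, had a CpG ratio of 0.761, no repeated words, and 7 distal peaks in replicate 1 and 8 in replicate 2. Skap1, an adaptor of T cell receptor signalling, had 3 and 2, and Tnfsf9, the ligand of the costimulatory receptor 4-1BB, had 10 and 9. Pdpn, podoplanin of reticular stroma, had 4 and 5. Flt4, the receptor of lymphatic endothelium, had 3 and 2, with 47.8% repeated words in its window. The nearest peak of Tbx21 was 11890 and 11698 bp away, and that of Skap1 was 25533 bp away in both libraries.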
